A study of Mus musculus with 25 samples.

Results

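The mouse miRNA hairpins mmu-mir-128-1, mmu-mir-128-2, mmu-mir-137, mmu-mir-138-1, mmu-mir-138-2 and mmu-mir-153, named below without the species prefix, give rise to 4 brain miRNAs, miR-128, miR-137, miR-138 and miR-153, which are known for their targets in neurons and at synapses. They were found by name in a table of read counts for 1193 miRNA precursors, and all 6 were present and passed the filter on low counts. The small RNA libraries came from brain hemispheres of male C57BL/6 mice, an inbred laboratory strain. There were 25 of them, 5 at each of 2, 9, 15, 24 and 30 months of age. The labels name no treatment or genetic change, and age is the labelled difference between the groups. Animal numbers also differ between ages, and a difference between cohorts of mice cannot be told apart from age. Each library carries its own animal number, and the replicates were taken as separate mice. The 6 precursors were selected on measured values, among neuron-enriched miRNAs, because their level was lower at 30 than at 2 months. Their values at those ages are therefore given as a description without a test, and tests compare only the ages of 9, 15 and 24 months, with 15 libraries. The model behind those tests took scaling and spread from all 25 libraries, those of 2 and 30 months included.

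A miRNA is cut from the stem of a hairpin transcript as a short RNA, loaded into an Argonaute protein and guided to messenger RNAs by its seed, bases 2 to 8 from its 5′ end, which usually lowers their stability or translation. In the brain, miR-128 is abundant in neurons and dampens excitability, and miR-137 is known from neuronal maturation, synaptic vesicle release and a genetic association of its locus with schizophrenia. miR-138 is found in dendrites, where it limits the size of spines, and miR-153 targets genes of synaptic vesicle release and alpha-synuclein.

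The mature sequences show which of the hairpins can be told apart by their reads. They are printed 5′ to 3′ from RefSeq (GRCm38.p6), where each of the 6 hairpins was matched by symbol, with the seed in capitals. The arms below are the ones known as the main products.
miR-128-3p: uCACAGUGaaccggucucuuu
miR-137-3p: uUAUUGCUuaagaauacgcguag
miR-138-5p: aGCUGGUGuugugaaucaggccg
miR-153-3p: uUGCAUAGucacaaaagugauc
The 4 seeds differ from each other, and none of the 1679 mature mouse names in the RefSeq table shares any of them under another name. miR-128-3p is encoded in both mir-128-1 and mir-128-2, and miR-138-5p in both mir-138-1 and mir-138-2. The opposite arms of these hairpins are not identical between copies, as printed next, again with the seed in capitals.
miR-128-1-5p: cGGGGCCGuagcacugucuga
miR-128-2-5p: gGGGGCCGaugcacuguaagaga
miR-138-1-3p: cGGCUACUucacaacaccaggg
miR-138-2-3p: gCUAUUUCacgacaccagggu
The 5p arms of the miR-128 copies share their seed, while the 3p arms of the miR-138 copies do not.

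The hairpins of the copied miRNAs are printed whole, with the mature arms in capitals, because the deposited counts are per hairpin and add its arms together.
mir-128-1: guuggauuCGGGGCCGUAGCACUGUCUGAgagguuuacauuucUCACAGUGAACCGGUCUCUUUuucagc
mir-128-2: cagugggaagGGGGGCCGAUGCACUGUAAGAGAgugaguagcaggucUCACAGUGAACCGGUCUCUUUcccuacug
mir-138-1: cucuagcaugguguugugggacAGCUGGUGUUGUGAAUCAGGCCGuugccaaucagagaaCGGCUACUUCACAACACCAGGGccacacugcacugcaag
mir-138-2: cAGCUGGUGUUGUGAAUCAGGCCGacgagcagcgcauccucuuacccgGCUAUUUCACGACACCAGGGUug
The longest run common to the miR-128 hairpins is 23 bases, which is the 21-base mature miR-128-3p and the 2 bases before it. That of the miR-138 hairpins is 24 bases, the 23-base miR-138-5p and 1 base before it. In each pair the hairpins differ from the first base after the mature miRNA. A read of exactly the shared mature sequence fits both copies, so the level of a single copy is uncertain, and the copies were also analysed as sums.

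In GRCm38, mir-128-1 lies on the plus strand of chromosome 1, from 128202361 to 128202430, in an intron of R3hdm1. mir-128-2 lies on the minus strand of chromosome 9, from 112118636 to 112118711, in an intron of Arpp21, a gene for a cAMP-regulated phosphoprotein of neurons. mir-153 lies on the plus strand of chromosome 12, from 117250817 to 117250885, in an intron of Ptprn2, a gene for a transmembrane protein of dense-core vesicles, with Gm5441 annotated as antisense over the same place. mir-137 lies on the plus strand of chromosome 3, from 118433857 to 118433929, within an exon of the noncoding transcript Gm26871. mir-138-1 lies on the plus strand of chromosome 9, from 122682876 to 122682974, within an exon of the transcribed pseudogene Gm47135. mir-138-2 lies on the plus strand of chromosome 8, from 94324311 to 94324381, within an exon of the lincRNA C78859. Each position is the same in GENCODE M21, from which the host genes were taken, and neither copied miRNA has both copies in 1 host gene.

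At 2 months, the animal numbers of replicates 1 and 2 belong to another run of numbers than those of replicates 3 to 5. The labels do not say whether these mice are a separate cohort, so 2-month values are also given with replicates 3 to 5 alone. Total counts ranged from 3779993 to 9524043 reads per library. The labelled tissue was checked by marker miRNAs. The summed level of the mir-124 and mir-9 precursors, known from neurons and brain, lay between 35760 and 48400 CPM (counts scaled to a common library size), against 189 to 279 CPM for the 6 muscle and liver precursors. Both sums hold copies of the same miRNA, and are too high if shared reads were counted for each copy. The 5 libraries of sequencing lane 3, 1 of each age, stand apart from the others in the whole table. For the 6 precursors, lane 3 differed from the mean of the other lanes at the same age by -0.13 to 0.23 on the log2 scale. mir-137 and mir-153 were higher in lane 3 at all 5 ages, by means of 0.07 and 0.11.

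miR-128 was the most abundant of the 4 miRNAs. Its copies together held 2.67% of all reads, with mir-128-1 in place 12 and mir-128-2 in place 23 of the 425 tested precursors by mean level. The miR-138 copies together held 0.885%, mir-153 held 0.332% and mir-137 held 0.0458% of reads. How reads of a shared sequence were counted is not given. If they were counted for both copies, the summed levels and shares are too high, and ratios that use them are affected. mir-137, the least abundant, had 1709 to 4024 reads in each library. With 1 library per mouse, the spread between mice, library preparation and lane cannot be told apart.

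**Figure D1:**
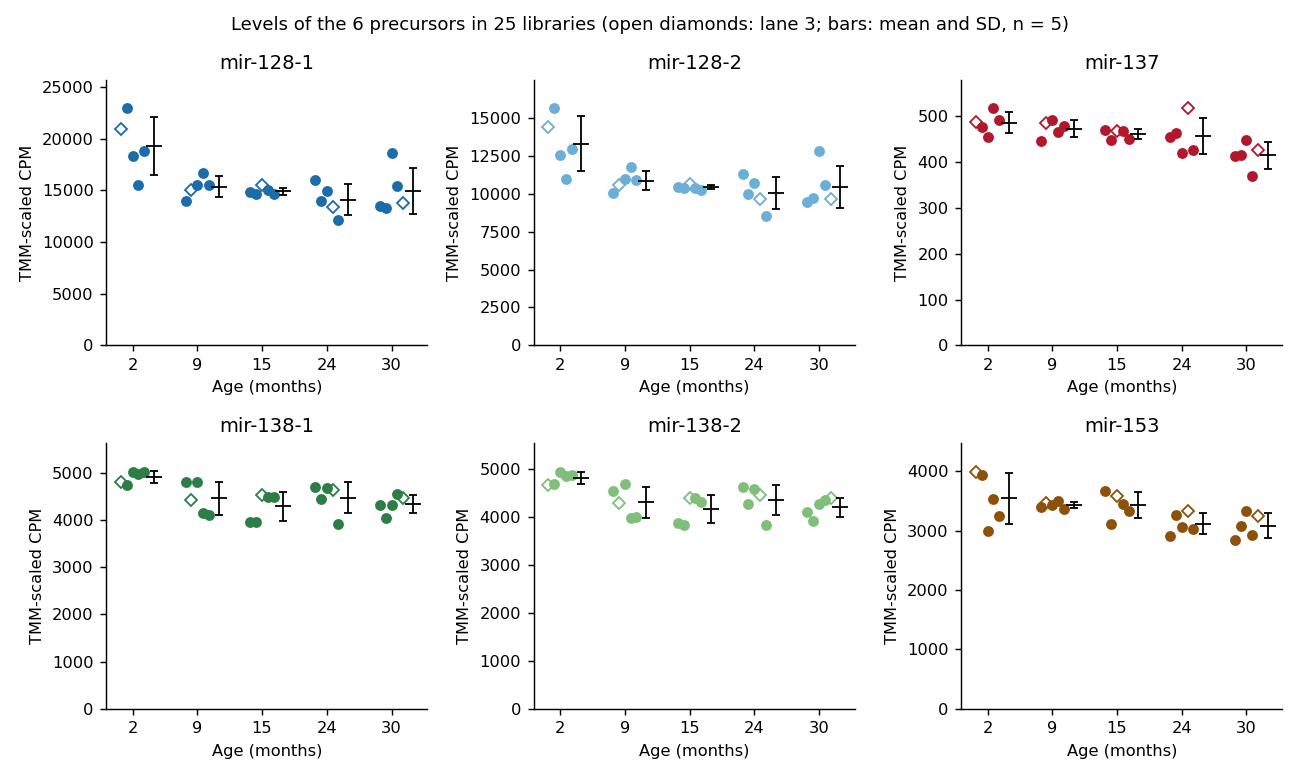
TMM-scaled CPM (vertical axes, starting at 0) of the 6 precursors against age in months, 1 point per library, open diamonds for lane 3 and black bars for mean and SD (n = 5). The libraries of mir-137, mir-138-1 and mir-138-2 at 30 months lie below all of those at 2 months, whereas those of mir-128-1, mir-128-2 and mir-153 overlap.

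mir-128-1 measured 20957, 22941, 18303, 15502 and 18819.9 CPM in replicates 1 to 5 at 2 months. At 9 months it measured 14009, 15069, 15539, 16711 and 15515 CPM. The 2-month libraries were above all 9-month libraries except replicate 4, which lay within their range. At 15 months the values were 14844, 14652, 15485.5, 14990.5 and 14656 CPM, the narrowest spread of the 5 ages. At 24 months they were 15989.8, 13966, 14974, 13408 and 12176 CPM, and at 30 months 13436, 13300.5, 18599, 15372 and 13797 CPM. The 30-month replicate 3 stood at a level like that of the 2-month libraries, above 2 of the 5.

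By age, mir-128-1 averaged 19305 ± 2813 CPM at 2 months, 15369 ± 973 at 9 months, 14925.5 ± 344 at 15 months, 14103 ± 1461 at 24 months and 14901 ± 2226 at 30 months (SD, n = 5). The order from high to low was 2, 9, 15, 30 and 24 months, and only the step from 2 to 9 months exceeded the larger SD of the ages it joins. mir-128-2, with the same mature miRNA, lay between 10933.5 and 15625 CPM at 2 months and between 10044 and 11781 at 9 months. It spanned 10239.5 to 10665 CPM at 15 months, 8514.5 to 11271 at 24 months and 9425 to 12794 at 30 months. Summed, the miR-128 copies averaged 32591 ± 4610 CPM at 2 months and 25336 ± 3609 CPM at 30 months (SD, n = 5).

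mir-137 measured 487, 477, 454, 518 and 492.7 CPM at 2 months in replicates 1 to 5, and 446, 485, 492, 465 and 479 CPM at 9 months. These ages overlapped over most of their range. At 15 months the values were 471, 448, 468, 469 and 451 CPM, and at 24 months 455, 464, 419, 517 and 427 CPM. The highest 24-month value, in replicate 4 from lane 3, equalled the top of the 2-month range to within 1 CPM. At 30 months the values were 413, 415, 449, 369.7 and 426 CPM, each below the lowest 2-month library. The means were 486 ± 23.2, 473 ± 18.3, 461 ± 10.9, 457 ± 38.9 and 415 ± 28.9 CPM from 2 to 30 months (SD, n = 5), in the order of age, and only the step from 24 to 30 months exceeded the larger SD.

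mir-138-1 measured 4797, 4731, 5023, 4967 and 5018 CPM at 2 months, the narrowest spread of its 5 ages. It measured 4807, 4423, 4807, 4136 and 4104 CPM at 9 months and 3949, 3959, 4526, 4495 and 4491 CPM at 15 months. The 9-month replicates 1 and 3 lay above the lowest 2-month libraries, and none of the 15-month libraries did. At 24 months the values were 4692, 4446, 4679, 4623 and 3911 CPM and at 30 months 4316, 4041, 4316, 4553 and 4469 CPM, and at both ages all libraries lay below the lowest 2-month library. The means were 4907 ± 135, 4455 ± 344, 4284 ± 301, 4470.4 ± 328 and 4339 ± 195 CPM from 2 to 30 months (SD, n = 5). The order was 2, 24, 9, 30 and 15 months, and only the 2-month mean stood off from its neighbour by more than the larger SD. mir-138-2 followed with 4663 to 4938 CPM at 2 months and 3817 to 4673 CPM in the other 20 libraries.

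mir-153 measured 3993, 3939, 2989, 3538 and 3246 CPM at 2 months, with replicates 1 and 2 above every other library of the study. At 9 months the values were 3405, 3469, 3438, 3490 and 3365 CPM, and at 15 months 3671, 3105, 3588, 3452 and 3322 CPM. At 24 months they were 2902, 3266, 3066, 3328 and 3026 CPM, each below the lowest 9-month library. At 30 months they were 2849, 3078, 3336, 2919 and 3241 CPM, within or close to the 24-month range. The means were 3541 ± 435, 3433 ± 49.97, 3428 ± 224, 3118 ± 176 and 3084.5 ± 206 CPM from 2 to 30 months (SD, n = 5), and only the step from 15 to 24 months exceeded the larger SD.

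The difference between 30 and 2 months, on which the precursors were chosen, was widest for the miR-128 copies with all 5 libraries at 2 months. With 2-month replicates 3 to 5 alone, the log2 fold change of mir-128-1 (-0.260) was close to that of mir-137 (-0.257). That of mir-128-2 (-0.242) was then nearer to 0 than that of mir-137. The log2 fold changes were -0.37 ± 0.09 for mir-128-1 and -0.35 ± 0.09 for mir-128-2 (SE, n = 5 per age), or changes in level of -22.8% and -21.5%. The fold changes were -0.23 ± 0.06 for mir-137, -0.20 ± 0.07 for mir-153, -0.19 ± 0.06 for mir-138-2 and -0.18 ± 0.06 for mir-138-1 (SE, n = 5 per age). As changes in level these are -14.7%, -12.9%, -12.5% and -11.6%. Summed copies gave -0.36 ± 0.09 for miR-128 and -0.19 ± 0.06 for miR-138. Over all 425 tested precursors, 36.9% passed an adjusted p of 0.05 in edgeR's quasi-likelihood test between these ages, 19.1% higher and 17.9% lower at 30 months, and the median log2 fold change was 0.05. Of these calls 51.6% were higher under the TMM scaling used here and 35.5% under upper-quartile scaling, which shifted the median by -0.07. The 6 precursors were taken from the lower ones, so their place there is no result, and no p is given for them. The 3 whose libraries did not overlap are mir-137, mir-138-1 and mir-138-2, against 11.1% of all tested precursors lying wholly lower at 30 months. In whole-hemisphere RNA, fewer neurons and less of a miRNA per neuron cannot be told apart.

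By the estimates alone, the largest step between adjacent ages did not fall in the same interval for each miRNA. From 2 to 9 months the log2 fold changes were -0.33 ± 0.09 for mir-128-1, -0.29 ± 0.09 for mir-128-2, -0.14 ± 0.06 for mir-138-1 and -0.16 ± 0.06 for mir-138-2 (SE, n = 5 per age). Over the same months mir-137 lay at -0.04 ± 0.06 and mir-153 at -0.04 ± 0.07. From 24 to 30 months mir-137 lay at -0.14 ± 0.06, while mir-128-1 lay at 0.08 ± 0.09, mir-138-1 at -0.04 ± 0.06 and mir-153 at -0.02 ± 0.07. By these estimates, most of the difference in the miR-128 and miR-138 levels lay in the first interval, and that of mir-137 in the last. These steps use libraries on which the precursors were chosen, share libraries with each other and were not tested against each other.

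**Figure D2:**
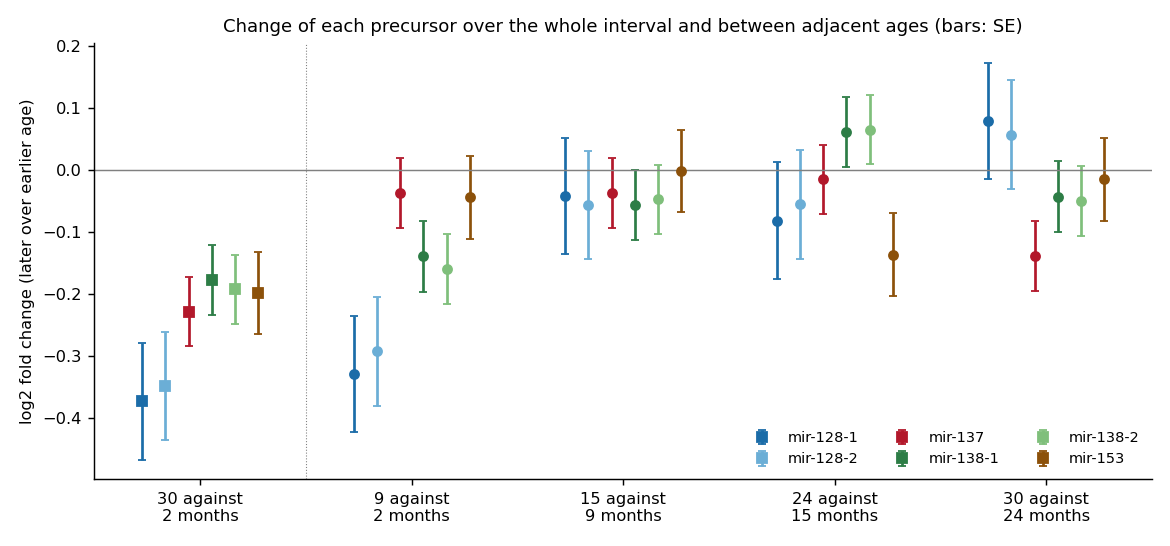
Log2 fold change (later over earlier age, bars SE, n = 5 per age) of each precursor between 2 and 30 months (squares) and between adjacent ages (circles). The miR-128 copies lie lowest from 2 to 9 months (-0.33 and -0.29), mir-153 from 15 to 24 months (-0.14) and mir-137 from 24 to 30 months (-0.14).

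The size of these differences depended on a few libraries for miR-128 and miR-153. With only 2-month replicates 3 to 5, the log2 fold change from 2 to 30 months was -0.26 for mir-128-1, -0.24 for mir-128-2 and -0.10 for mir-153, and that of mir-153 from 2 to 9 months was 0.08. From 2 to 9 months it was -0.19 for mir-128-1 and -0.16 for mir-128-2 in that setting. It was -0.26 for mir-137, -0.23 for mir-138-1 and -0.24 for mir-138-2 from 2 to 30 months. Without 30-month replicate 3, mir-128-1 lay at -0.50 and mir-128-2 at -0.47, and the values from 24 to 30 months turned to -0.03 and -0.05. Within the 4 lanes that held both ages, the log2 difference of mir-128-1 was -0.60 in lane 3, -0.45 in lane 5, -0.22 in lane 6 and -0.02 in lane 7. mir-137 lay between -0.32 and -0.13 and mir-138-1 between -0.30 and -0.10 over these lanes. mir-153 lay between -0.30 and 0.04, with the single positive difference in lane 7.

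**Figure D3:**
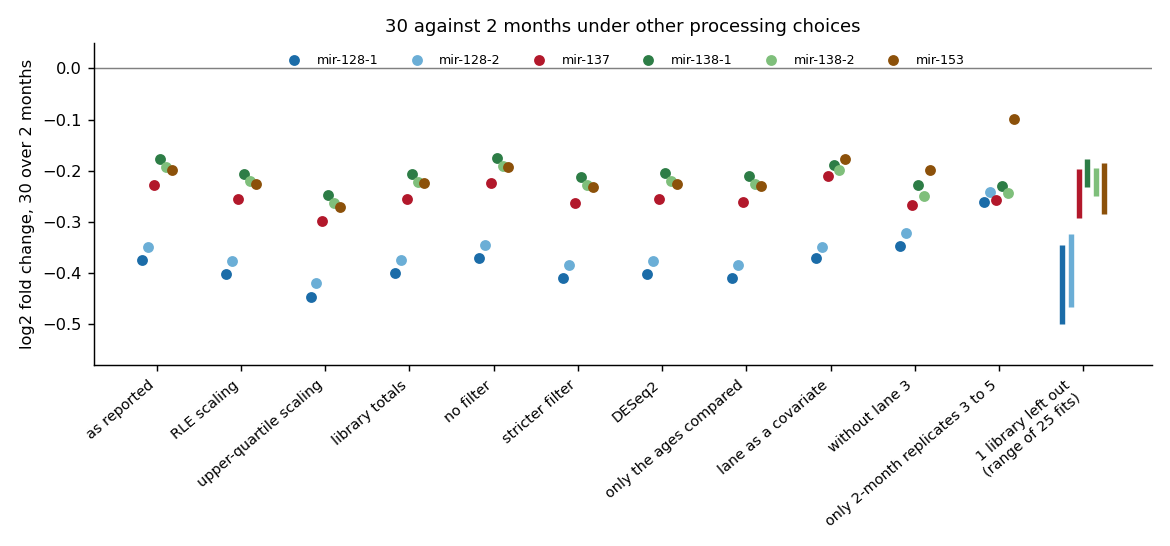
Log2 fold change from 2 to 30 months of each precursor as reported, under other processing choices, and as the range of 25 fits that each leave out 1 library. All values lie below 0, and mir-153 with 2-month replicates 3 to 5 (-0.10) lies nearest to it.

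The stated reason for choosing the 6 precursors did not use the levels at 9, 15 and 24 months. The choice was made with earlier results of these data known, however. Whether those results included these ages is not stated, so the tests below may not be fully independent of the choice. Between 9 and 24 months none of the 6 passed. mir-153 was the lowest, with a log2 fold change of -0.14 ± 0.07 (SE, 95% interval -0.28 to -0.00, edgeR adjusted p = 0.352 and 0.047 before adjustment). Its 5 libraries of 24 months lay below all 5 of 9 months, as did 0.941% of the tested precursors, and the difference was negative in each of the 4 lanes with both ages, from -0.21 to -0.06. Fitted on the libraries of these ages alone, mir-153 lay at -0.15 (edgeR adjusted p = 0.200 and 0.00401 before adjustment). Its adjusted p under the alternatives ran from 0.112, with lane as a covariate, to 0.635.

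The other precursors gave smaller or less certain differences between 9 and 24 months. mir-128-1 lay at -0.12 ± 0.09 (95% interval -0.32 to 0.07, adjusted p = 0.615) and mir-128-2 at -0.11 ± 0.09 (-0.29 to 0.07, adjusted p = 0.615). mir-137 lay at -0.05 ± 0.06 (-0.17 to 0.06, adjusted p = 0.680). mir-138-1 lay at 0.00 ± 0.06 (-0.11 to 0.12, adjusted p = 0.969) and mir-138-2 at 0.02 ± 0.06 (-0.10 to 0.13, adjusted p = 0.903). Of the lower ends of these intervals, those of the miR-138 copies lay nearest to 0. Among all tested precursors, 0 of 425 passed between 9 and 24 months in edgeR (0%), with 59 at an unadjusted p under 0.05 and 9 past the adjusted threshold with DESeq2.

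Neither part of that interval gave a call among the 6 precursors. Between 9 and 15 months their log2 fold changes ran from -0.06 for mir-128-2 to -0.00 for mir-153 (adjusted p = 0.998 for each), and edgeR called 0% of all precursors (27 at an unadjusted p under 0.05, 2 called by DESeq2). Between 15 and 24 months mir-153 lay at -0.14 ± 0.07 (95% interval -0.27 to 0.00, adjusted p = 0.440) and the others between -0.08 for mir-128-1 and 0.07 for mir-138-2 (adjusted p from 0.697 to 0.920). There edgeR called 0.235% of precursors, 1 in all, with 2 by DESeq2. It was mir-378a (-0.28 ± 0.06, adjusted p = 0.0318), a miRNA encoded in the metabolic regulator gene Ppargc1b, named here after its value was seen. Any difference among 9, 15 and 24 months gave adjusted p from 0.451 for mir-153 to 0.852 for mir-137, with 0% of precursors called and 47 at an unadjusted p under 0.05. Fitted on the libraries of these 3 ages alone, mir-153 gave an edgeR adjusted p of 0.204 (0.0095 before adjustment).

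**Figure D4:**
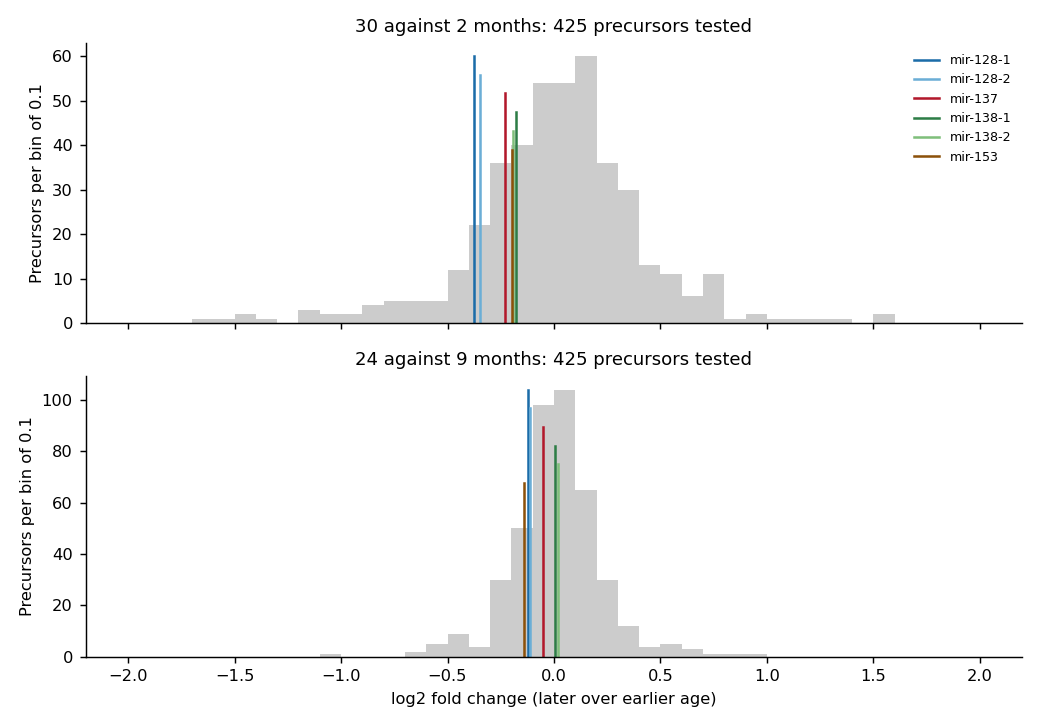
Number of precursors per bin of 0.1 log2 fold change (grey, 425 tested) from 2 to 30 months and from 9 to 24 months, with the 6 precursors as coloured lines whose height carries no value. In the upper panel they lie between -0.37 and -0.18, and in the lower panel between -0.14 and 0.02.

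The 4 miRNAs could also be compared with each other within a library, where scaling cancels. One molecule's reads were set against the other's, with copies summed, and 6 pairs were tested between 9 and 24 months by an exact two-sided permutation test, which can reach 0.00794 at the least. The ratio of miR-138 to miR-153 averaged 2.54 at 9 months and 2.83 at 24 months, a log2 difference of 0.15 (exact p = 0.103, adjusted 0.317 over the 6 pairs). The ratio of miR-128 to miR-138 averaged 3.0 at 9 months and 2.73 at 24 months, a log2 difference of -0.14 (exact p = 0.159, adjusted 0.317). The ratio of miR-137 to miR-153 differed by 0.09 (exact p = 0.127, adjusted 0.317). The other 3 ratios differed by -0.07, 0.02 and -0.07 (exact p from 0.444 to 0.865), and no pair passed the adjusted threshold. The difference of miR-138 to miR-153 was wider than the SD of its log2 ratio at 9 months (0.111) and at 24 months (0.135). For each of the other pairs the difference was smaller than the larger SD of these ages. A test that does not pass does not show that a ratio stayed the same. As a description, the ratio of miR-128 to miR-153 was 9.19 at 2 months and between 7.41 and 8.17 at the later ages.

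The spread between libraries of 1 age was not the same for each miRNA or age. Pooled over ages, the SD of log2 CPM was 0.15 for miR-128 with copies summed, 0.11 for miR-153, 0.09 for miR-138 and 0.08 for miR-137. The median was 0.16 over all tested precursors and 0.12 over the 225 with at least 100 CPM. The wide pooled spread of miR-128 came from 2, 24 and 30 months (SD 0.21, 0.15 and 0.19), while at 15 months its SD of 0.03 was no wider than those of the other miRNAs. These spreads were not tested against each other. The highest library exceeded the lowest by 1.86-fold for miR-128, 1.4-fold for miR-137 and miR-153 and 1.29-fold for miR-138. For miR-137 and miR-153, 20 of 25 libraries lay on the same side of their age means, among them all 5 of lane 3, where both were high. Without lane 3, a count added after the data were seen, it was 13 of 20 libraries. The other 5 pairs shared a side in 12 to 15 of 25 libraries, and in 9 to 13 of 20 without lane 3.

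The division of reads between copies was nearly the same in every library. mir-128-1 held 59.2% ± 0.326 of the reads of its pair at 2 months, 58.6% ± 0.227 at 9 months, 58.9% ± 0.28 at 15 months, 58.4% ± 0.309 at 24 months and 58.8% ± 0.594 at 30 months (SD, n = 5). Over all 25 libraries its share lay between 57.8% and 59.5%. mir-138-1 held 50.3% to 51.4% of the reads of its pair, close to an equal division. Between 9 and 24 months the share of mir-128-1 differed by -0.18 points (exact permutation p = 0.349) and that of mir-138-1 by -0.21 points (exact permutation p = 0.294), each with an adjusted p of 0.349. Where reads have the shared sequence, the levels of the copies are not separate measurements of the loci.

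**Figure D5:**
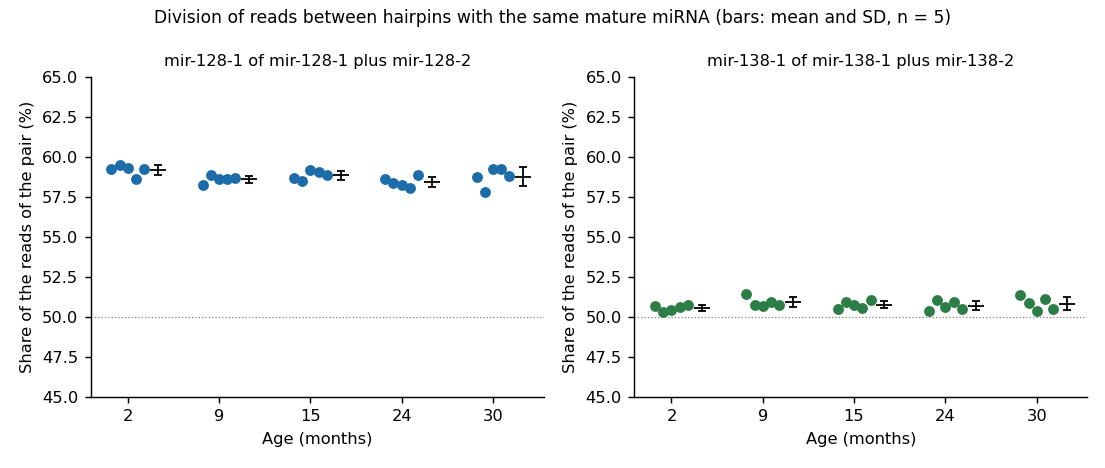
Share of the reads of each pair of hairpins that was counted for the first copy (vertical axis in percent, from 45 to 65), 1 point per library, against age in months, with mean and SD (n = 5) in black and a dotted line at 50%. mir-128-1 stays between 57.8% and 59.5% and mir-138-1 between 50.3% and 51.4%.

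Other miRNAs known as neuron-enriched did not share 1 direction between 2 and 30 months. Of 21 listed precursors, 19 had a matching row and were tested, and mir-7-1 and mir-7-2 were not analysed here. In edgeR 2 rose, 3 fell and 14 did not pass, where 19.1% of all tested precursors rose and 17.9% fell, with a median log2 fold change of 0.09 against 0.05 over all tested precursors. Those that rose were mir-488 (0.47 ± 0.07, SE, n = 5 per age, adjusted p = 8.96e-06), from an intron of the neuronal gene Astn1, and mir-383 (0.28 ± 0.08, adjusted p = 0.0116). Those that fell were mir-212 (-0.47 ± 0.06, adjusted p = 3.90e-06) and mir-132 (-0.34 ± 0.06, adjusted p = 9.77e-05), induced together by neuronal activity, and mir-135b (-0.32 ± 0.11, adjusted p = 0.0267). mir-135a-2, with -0.24 ± 0.10, missed the threshold (adjusted p = 0.0589). The 3 copies of the neuronal mir-124 lay between 0.09 and 0.10 (adjusted p from 0.126 to 0.184). Copies of mir-124, mir-9, mir-218 and mir-135a have separate rows, so counts and medians of this list include several rows of the same miRNA. The list was compiled with earlier results of these data known. The precursors studied here were picked among neuron-enriched miRNAs because they were lower at 30 than at 2 months. They are left out of this list, so its counts and median are biased against a fall between these ages. The list therefore cannot give the direction of neuron-enriched miRNAs as a whole.

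Between 9 and 24 months 0 of these 19 passed in edgeR, with a median log2 fold change of -0.05 against 0.01 over all precursors. The lowest were mir-212 (-0.12 ± 0.06, adjusted p = 0.393) and mir-218-2 (-0.10 ± 0.09, adjusted p = 0.654). The highest were mir-7b (0.20 ± 0.09, adjusted p = 0.313) and mir-488 (0.20 ± 0.07, adjusted p = 0.206).

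Markers of other cells moved with age beside the neuronal miRNAs. All 3 oligodendrocyte precursors rose from 2 to 30 months (edgeR), where 19.1% of all tested precursors rose and 17.9% fell. They are mir-338 and both copies of mir-219a, and they summed to 2487 to 2913 CPM at 2 months and 3612 to 4554 CPM at 30 months, without overlap. Of the 7 microglial and immune precursors 5 rose and 1 fell, and they summed to 5111 to 5817 CPM at 2 months and 6633 to 7740 CPM at 30 months, also without overlap, and none was at 0 in any library. Of the tested choroid plexus and ciliated cell markers 3 of 6 rose past the threshold, of the vascular and mural ones 2 of 6 and of the muscle and liver ones 2 of 5. None of these fell past it. Their median log2 fold changes were 0.31, 0.14 and -0.31 in that order. The muscle and liver sum went the other way from its median. It averaged 209 CPM at 2 months and 250 CPM at 30 months, and the libraries of these ages overlapped. Of the 4 erythroid and 8 epithelial and sensory markers 0 passed in edgeR. The mir-124 and mir-9 sum did overlap, with 38290 to 43030 CPM at 2 months and 38620 to 48400 CPM at 30 months. At both ages the lowest sum was that of the lane 3 library. The other libraries spanned 41170 to 43030 CPM at 2 months and 43010 to 48400 CPM at 30 months, which barely overlap. The part of these markers in the lower level of the 6 precursors was not tested. Epithelial and sensory markers, 8 precursors from the clusters of miR-200 and miR-183, summed to 227 to 8702 CPM over the 25 libraries. In the 4 libraries with the highest miR-128 these sums were 896 CPM (2-month replicate 2), 7006 CPM (2-month replicate 1), 2060 CPM (2-month replicate 5) and 1170 CPM (30-month replicate 3). The part of these cells in the miR-128 level was not tested.

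Some precursors followed an age course close to that of each miRNA. Likeness was measured as the root mean square difference of the 5 age means of log2 CPM, each centred on its own mean, over 319 other precursors with at least 10 CPM. For miR-128 the closest were mir-673 (0.04) and mir-484 (0.05), against a median of 0.18 over all those compared. For miR-137 they were mir-411 and mir-582 (0.02 each, median 0.12). For miR-138 they were mir-28a (0.01) and mir-668 (0.03, median 0.12), and for miR-153 mir-708 and mir-190a (0.03 each, median 0.12). The 8 closest precursors were 8 different ones. Their differences were smaller than the SE of the steps between ages, so which precursor came out closest is uncertain. The 4 miRNAs were not compared with each other in this way, and whether their courses over the 5 ages differ was not tested.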

How the data were processed

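The authors deposited read counts per miRNA precursor, arms of a hairpin together, for 25 libraries, 1 per mouse. Per the labels' protocols, a TruSeq kit for small RNA was used, and no molecular identifiers are mentioned, so reads may include PCR copies of a molecule. Tools listed in the submitters' processing notes are Trimmomatic 0.36, bcl2fastq 1.8.4 and SAMtools 1.3.1-9. What is not given in the sources used here is the aligner, the counting tool, use of strand, the genome build and the treatment of reads with several matches, so reads of mir-128 and mir-138 copies may be divided or counted for each. Ages come from the labels, replicate numbers from the order of deposition, and lanes from the column names.

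Precursors were kept by filterByExpr (425 of 1193) and scaled by TMM, the trimmed mean of M values. Counts of all 25 libraries entered 1 quasi-likelihood model, each age having its own mean (edgeR 4.0.16, R 4.3.3). Adjusted p-values (Benjamini-Hochberg, all 425 precursors) had a threshold of 0.05. CPM use TMM library sizes, and log2 values of CPM have 0.5 added. The standard error is the fold change over the square root of F. Ratios and shares were tested with SciPy 1.17.1. The scripts were tested on simulated data.

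Replicate pairs differed by 19.6 to 304 in chi-square per degree of freedom, so none was counted as 1 library. P-values measure the spread between libraries, 1 per mouse, in which mouse, preparation and lane are not separated. The members, lists and tests were chosen with earlier results of these data known. All 6 precursors were named. In the neuron-enriched list the rule named the 2 highest and 2 lowest values from 9 to 24 months, and those past the threshold from 2 to 30 months were added after their values were seen, as were mir-135a-2 and the mir-124 copies. The 2 most alike precursors were named for each miRNA. Alternatives were other scalings (RLE, upper quartile, library totals), no filter, a filter of 10 CPM in 5 libraries, DESeq2 1.42.0, only the ages compared, lane as a covariate, leaving out lane 3 or single libraries, summed copies and, for 2 months, replicates 3 to 5 alone.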

Additional observations from a re-analysis of the deposited data

Results flagged for a closer look

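In 1 of 40 groups of 5 libraries tested (30 of levels and 10 of copy shares), a library stood apart from the other 4 by more than Dixon's 95% critical value of 0.71. The share of mir-128-1 in the reads of its pair was 58.64% in 2-month replicate 4, against 59.3% to 59.5% in the other 2-month libraries, a gap of 0.747 of the whole range. Chance flags about 1 in 20 such groups. The same library had the lowest mir-128-1 level of its age, 15502 CPM.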

How the results depend on the processing

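None of the 6 precursors passed the threshold between 9 and 24, 9 and 15 or 15 and 24 months under any alternative run, and all 6 lay below 0 from 2 to 30 months in each. The number of precursors called from 2 to 30 months ran from 119 to 172 over the other settings and from 131 to 163 without single libraries. Its balance depended on scaling, with 81 higher and 76 lower under TMM against 50 higher and 91 lower with upper quartiles and 68 higher and 89 lower with RLE. No paired analysis was possible because the labels give each mouse its own number and share none between ages. Sequencing lanes are shared between ages, and lane as a covariate serves as the block that could be fitted.

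The small counts of calls in mid-life moved with many choices. From 9 to 24 months, 0 became 4 under RLE scaling, 4 with the stricter filter, 15 with lane as a covariate, 3 without lane 3 and 9 with DESeq2. From 9 to 15 months, 0 became 1 with library totals and 2 with DESeq2. From 15 to 24 months, 1 became 0 under upper-quartile scaling, 0 with no filter and 0 without lane 3, and 2 with lane as a covariate or with DESeq2. Any difference among the 3 ages gave 1 in place of 0 under RLE scaling, with library totals, with the stricter filter and with only those ages, and 10 with lane as a covariate. Leaving out single libraries gave 0 to 6 calls from 9 to 24 months (6 without 2-month replicate 1, 5 without 30-month replicate 2), 0 to 1 from 9 to 15 months, 0 to 1 from 15 to 24 months (0 without 15-month replicate 3 or 24-month replicates 1 or 4) and 0 to 2 for any difference. The cause of these shifts was not tested.

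Values near 0 changed sign. From 9 to 24 months mir-138-1 lay at -0.0092 under RLE scaling, -0.01078 with the stricter filter, -0.009224 with DESeq2, -0.01675 without lane 3 and -0.004718 with only the ages compared. Without single libraries it ran from -0.0296 to 0.04382 and mir-138-2 from -0.01952 to 0.05424. From 15 to 24 months mir-137 lay at 0.009363 with library totals and 0.03749 with upper quartiles, and from -0.06544 to 0.02103 without single libraries. From 9 to 15 months mir-153 lay at 0.007129 with no filter and 0.001885 with only the ages compared, and without single libraries from -0.02852 to 0.03161, with mir-128-1 from -0.08324 to 0.004833. From 24 to 30 months mir-128-2 lay at -0.00967 under upper-quartile scaling and from -0.04671 to 0.08996 without single libraries, mir-128-1 from -0.03313 to 0.1158, and mir-153 at 0.009581 with lane as a covariate and from -0.06391 to 0.007973. From 2 to 9 months mir-153 lay at 0.005288 without lane 3 and 0.07899 with 2-month replicates 3 to 5. The log2 ratio of miR-128 to miR-153 differed by -0.0537 to 0.0608 without single libraries. No ratio or share passed an adjusted p of 0.05 under these alternatives.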
